A study of Mus musculus with 1989 samples.

Results

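The CD3 chain genes Cd3d, Cd3e, Cd3g and Cd247 were followed through mouse thymocyte development in a table of single-cell RNA levels and a table of single-cell open chromatin. These 4 genes were 4 of the 8846 genes of the scRNA-seq table, and they were read in all 1993 cells. Of the 138317 scATAC-seq peaks, 151 overlapped their loci, which were taken as the gene bodies with 10 kb on each side. There were 57 peaks at the locus that holds Cd3g, Cd3d and Cd3e and 94 peaks at the Cd247 locus. The genes were taken by name and their peaks by position, and the set of genes was chosen with earlier results of these data known.

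Both tables came from thymus of male mice labelled as 7 weeks old, with no treatment or engineered allele named. The scRNA-seq was 1 library of thymus cells made with a droplet 3′ kit. The scATAC-seq cells used here were sorted by their labels as DN (CD4 and CD8 double negative, 182 cells), DP (double positive, 125 cells), CD4 (119 cells) and CD8 (116 cells), beside 1084 unsorted thymus cells on 36 plates. No label names an animal for any cell, so each sort counted as 1 sample, no test between groups was possible, and every interval given covers counting error only. Each sort falls into 2 to 5 series of label numbers, which are not replicates. A series is named by the number its labels count up from, so the 4000 series holds labels of 4000 and more.

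The CD3 chains are the signalling subunits of the T cell receptor. CD3ε pairs with CD3γ or with CD3δ, and CD3ζ, the product of Cd247, forms a homodimer that joins the complex last and is needed for its transport to the cell surface. Their cytoplasmic tails carry the tyrosine motifs called ITAMs, which the kinase Lck phosphorylates and which then bind ZAP-70. In the thymus the chains first serve the pre-T cell receptor of DN cells, and later the αβ receptor that is tested for selection in DP cells.

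In the mouse genome (GRCm38, GENCODE vM21), Cd3g lies at chr9:44969572-44980431 on the minus strand and Cd3d at chr9:44981786-44987339 on the plus strand, so that their starts lie 1355 bp apart and point away from each other. Cd3e lies next to them at chr9:44998740-45009627 on the minus strand. Cd247 lies on another chromosome, at chr1:165788681-165877277 on the plus strand.

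The 250 bases before each RefSeq start are shown because the chromatin data below were read around the starts of these genes. All 4 genes matched the RefSeq promoter table (GRCm38.p6). For Cd3e the RefSeq start lies downstream of the GENCODE start used for the chromatin data, so the last 16 bases of its window lie inside the gene as given above. Capitals mark matches, on either strand, to 6 short motifs, and neighbouring matches can share bases. The motifs are CANNTG, the E box bound by E proteins, GGAA, the core bound by ETS factors, and TGTGGT, bound by Runx factors. The others are AGATAA, bound by Gata3 and its relatives, CTTTGA, bound by the Tcf and Lef factors, and TATAAA, the TATA box.
Cd3g promoter, chr9:44980432-44980681, minus strand: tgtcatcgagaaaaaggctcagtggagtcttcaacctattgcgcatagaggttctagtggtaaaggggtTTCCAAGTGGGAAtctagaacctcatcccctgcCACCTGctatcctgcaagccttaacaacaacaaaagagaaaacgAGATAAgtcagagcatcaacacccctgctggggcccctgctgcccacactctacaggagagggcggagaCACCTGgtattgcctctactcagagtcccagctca
Cd3d promoter, chr9:44981536-44981785, plus strand: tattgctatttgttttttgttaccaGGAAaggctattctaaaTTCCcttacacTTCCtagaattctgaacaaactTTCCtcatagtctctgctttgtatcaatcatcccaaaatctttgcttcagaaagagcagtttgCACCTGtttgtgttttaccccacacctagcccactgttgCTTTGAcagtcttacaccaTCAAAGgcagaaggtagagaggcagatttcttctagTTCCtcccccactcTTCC
Cd3e promoter, chr9:45009612-45009861, minus strand: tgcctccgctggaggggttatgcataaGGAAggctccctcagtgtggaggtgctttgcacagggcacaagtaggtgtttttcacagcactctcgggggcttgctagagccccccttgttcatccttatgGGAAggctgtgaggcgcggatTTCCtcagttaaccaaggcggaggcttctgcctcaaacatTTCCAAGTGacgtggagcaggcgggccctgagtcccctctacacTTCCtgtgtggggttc
Cd247 promoter, chr1:165788431-165788680, plus strand: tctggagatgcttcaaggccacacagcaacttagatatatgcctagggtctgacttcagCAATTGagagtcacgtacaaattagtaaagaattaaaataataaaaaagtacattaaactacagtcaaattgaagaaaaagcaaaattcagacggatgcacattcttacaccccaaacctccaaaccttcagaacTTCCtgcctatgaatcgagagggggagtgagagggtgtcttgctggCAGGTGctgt

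None of the 4 windows held the TATA or the Runx letters, which 12.4% and 14% of the 32851 promoter windows of the same length held. The Cd3d window had 6 matches to GGAA and 1 E box. It also had 2 matches to CTTTGA, at bases -73 to -68 and -54 to -49 from the RefSeq start, on opposite strands. The Cd3e window had 5 matches to GGAA and 1 E box, and the Cd3g window had 2 matches to GGAA, 3 E boxes and 1 match to AGATAA. The Cd247 window had 2 E boxes and 1 match to GGAA. GGAA was found in 93.4% and the E box in 66.2% of all windows, CTTTGA in 13.8% and AGATAA in 10.0%, so the first pair of motifs sets these promoters apart little. A match is a description of the letters and not a site of binding.

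A further window is shown because it lies at the centre of the Cd247 peak with the largest signal in DP sorted cells, in an intron 13.5 kb after the start.
Cd247 intron peak, chr1:165802017-165802316, plus strand: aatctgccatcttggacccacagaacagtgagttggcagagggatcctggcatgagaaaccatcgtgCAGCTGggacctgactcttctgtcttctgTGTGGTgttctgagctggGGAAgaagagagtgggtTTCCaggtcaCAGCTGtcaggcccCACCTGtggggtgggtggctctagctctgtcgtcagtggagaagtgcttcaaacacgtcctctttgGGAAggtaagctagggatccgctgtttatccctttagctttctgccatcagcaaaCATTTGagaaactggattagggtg
It held 4 E boxes, 3 matches to GGAA and 1 to TGTGGT. Windows of the same length at the centres of all peaks held these letters in 81.1%, 95.4% and 27.5% of cases.

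The scRNA-seq cells were clustered without the CD3 genes and without 57 other genes of T cell receptor biology, and 15 of the 16 clusters took the name of the stage whose markers they scored highest for. This gave 75 DN-like cells, 194 ISP-like cells (immature single positive), 463 DPbla-like cells (dividing DP blasts), 501 DPre-like cells (DP cells that rearrange the α chain), 327 DPsel-like cells (DP cells in selection), 160 CD4sp-like and 131 CD8sp-like cells (single positive), 31 NCL-like cells (with natural killer genes) and 35 APC-like cells (antigen presenting). A cluster of 76 cells led by Tnfrsf9, Tnfrsf4 and Ikzf2 was left unnamed after its leading genes were seen and is given as the Tnfrsf9-led cluster. The names rest on these rebuilt clusters. The cluster named DN-like was led by Myl10, Tcrg-C1 and Tcrg-C2, and 78.7% of its cells were above 0 for Il2ra, the IL-2 receptor α chain of DN cells. Of the DPre-like clusters, 1 of 115 cells was led by histone genes and had Mki67 above 0 in 44.3% of cells. The DPsel-like clusters were led by Itm2a and, in the other, by the globin gene Hbb-bs.

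The deposited values are on a log2 scale after quantile normalization, so 1 molecule is worth a different value in each cell. The values of a cell were therefore also read as steps, where the lowest value above 0 is 1 step, the next distinct value 2 steps and so on, which follows the molecule count of a weakly expressed gene. The median cell held 2558 steps, from 1356 to 22539, and the median by class ran from 1921 in the Tnfrsf9-led cluster to 9116 in ISP-like cells. For comparison between classes 1300 steps were drawn at random from every cell.

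The 35 APC-like cells set the background, since they should lack CD3 transcripts. After thinning, 37.1% of them still held a step of Cd3d (exact 95% interval 21.5% to 55.1%), 25.7% a step of Cd3e, 37.1% of Cd3g and 22.9% of Cd247. Their median depth was 2412 steps, and before thinning 65.7%, 45.7%, 60% and 37.1% of them were above 0 for these genes. A share at or under these levels was read as background and not as expression.

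Cd3d, which encodes CD3δ, was lowest in the ISP-like cells among the thymocyte classes, and its highest mean levels were those of the CD8sp-like and DPsel-like cells. Its mean was 3.04 steps per 1300 in DN-like cells (exact Poisson 95% interval 2.66 to 3.46), 1.35 in ISP-like cells (1.19 to 1.52), 1.66 in DPbla-like cells (1.55 to 1.78) and 2.65 in DPre-like cells (2.51 to 2.8). It was 3.41 in DPsel-like cells (3.22 to 3.62), 3.02 in CD4sp-like cells (2.76 to 3.31) and 3.47 in CD8sp-like cells (3.16 to 3.81). The ISP-like, DPbla-like and APC-like levels each stood apart from the next level in the order, while from DPre-like upward each interval overlapped that of its neighbour. The APC-like level was 0.457 steps (0.261 to 0.742).

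Cd3e, which encodes CD3ε, the chain shared by both CD3 heterodimers, moved least after the blast stage. It was at 2.04 steps per 1300 in DN-like cells (1.73 to 2.39), 0.876 in ISP-like cells (0.75 to 1.02) and 1.14 in DPbla-like cells (1.05 to 1.25). The next levels were 1.71 in DPre-like cells (1.59 to 1.82), 1.72 in DPsel-like cells (1.58 to 1.86), 1.69 in CD4sp-like cells (1.5 to 1.91) and 2.02 in CD8sp-like cells (1.78 to 2.27). Every neighbouring pair in the order overlapped from the DN-like cells at the top down to the DPbla-like cells, and the ISP-like cells lay under them.

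Cd3g, which encodes CD3γ, was highest in DN-like cells. Its mean there was 4.28 steps per 1300 (3.82 to 4.77), against 1.49 in ISP-like cells (1.33 to 1.68), 1.71 in DPbla-like cells (1.6 to 1.84) and 2.06 in DPre-like cells (1.94 to 2.19). It was 2.62 in DPsel-like cells (2.45 to 2.81), 3.01 in CD4sp-like cells (2.74 to 3.29) and 3.35 in CD8sp-like cells (3.04 to 3.68). The DN-like interval lay above that of every other class, and the DN-like level was 2.86 times the ISP-like level (2.44 to 3.37) and 2.07 times the DPre-like level (1.82 to 2.35).

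Cd247, which encodes CD3ζ, had another order, with its highest level at equal depth in DPre-like cells. The DPre-like mean was 0.954 steps per 1300 (0.87 to 1.04). It was 0.507 in DN-like cells (0.359 to 0.695), 0.253 in ISP-like cells (0.187 to 0.334) and 0.501 in DPbla-like cells (0.439 to 0.57). After DPre it was 0.768 in DPsel-like cells (0.676 to 0.869), 0.581 in CD4sp-like cells (0.469 to 0.712) and 0.542 in CD8sp-like cells (0.423 to 0.684). The DPre-like interval lay just above the DPsel-like one, and all neighbours below DPsel-like overlapped. The APC-like level was 0.286 steps (0.137 to 0.525), an interval that overlaps those of the DPbla-like, CD4sp-like and CD8sp-like cells. The ISP-like level was 0.884 times the APC-like level (0.442 to 1.96), so at equal depth Cd247 was not detectable above background in ISP-like cells. Without thinning, 76.8% of ISP-like cells were above 0 for Cd247 with a mean of 1.97 steps, against 37.1% and 0.457 steps in the shallower APC-like cells, so this reading holds for the share of a cell's steps and not for the steps per cell. The DN-like level was 1.77 times the APC-like level with an interval that includes 1 (0.867 to 3.99), and the DPre-like level 3.34 times (1.8 to 7.01).

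**Figure D1:**
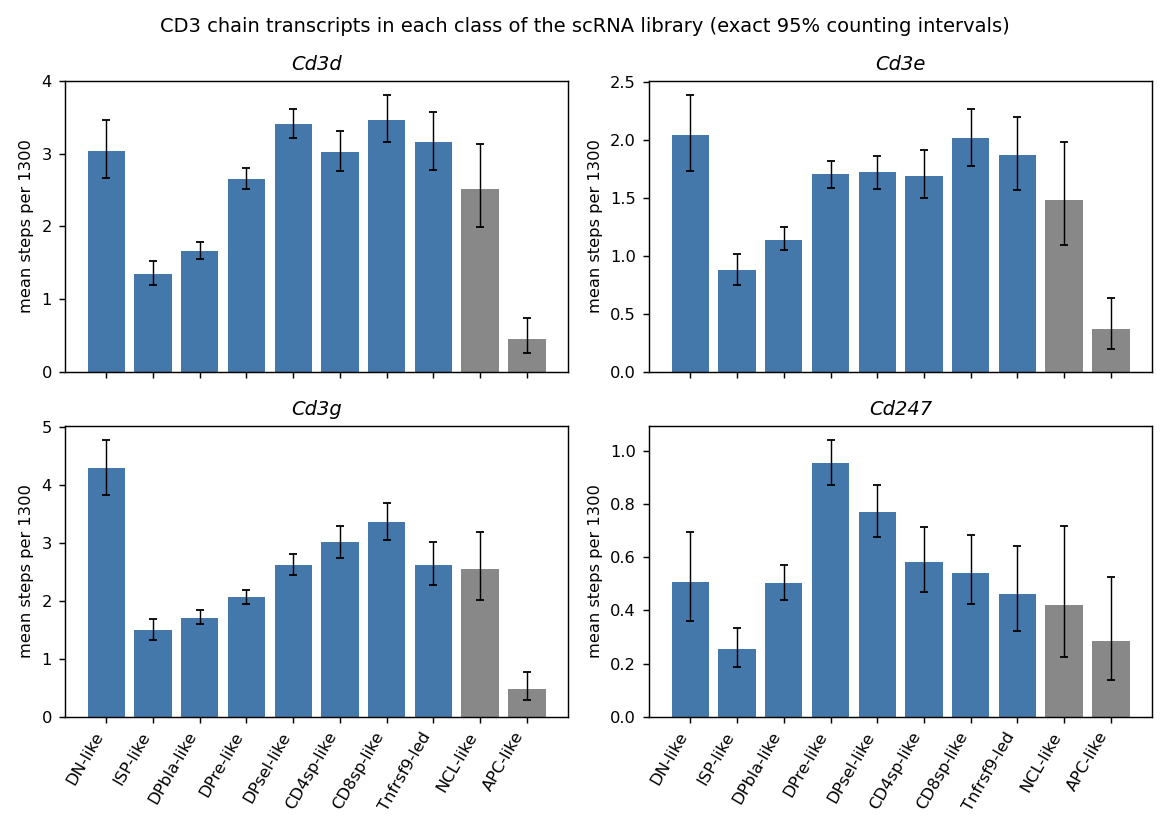
Mean steps per cell at 1300 steps for each CD3 gene (y axis, each panel with its own scale from 0) in 10 classes of the scRNA library (x axis), with exact Poisson 95% intervals that cover counting error only; grey bars are the NCL-like and APC-like cells. Cd3d, Cd3e and Cd3g were lowest among thymocytes in the ISP-like cells (1.35, 0.876 and 1.49 steps), and Cd247 was highest in the DPre-like cells (0.954 steps).

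The low ISP-like levels are levels per 1300 steps, and these cells were the deepest of all. Without thinning, an ISP-like cell held 9.94 ± 6.13 steps of Cd3d (SD over 194 cells), 6.44 ± 3.69 of Cd3e, 11.3 ± 6.8 of Cd3g and 1.97 ± 1.71 of Cd247. A DPre-like cell held 4.47 ± 2.36, 2.88 ± 1.93, 3.58 ± 2.45 and 1.6 ± 1.3 steps of the same genes (SD over 501 cells). Counted as steps per cell, all 4 chains were thus higher in ISP-like than in DPre-like cells, and counted as a share of the steps of the cell all 4 were lower. A step is a rank within the cell, so a share of steps is not a share of transcripts. More RNA in a cell and better capture of it cannot be told apart in these values.

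On the deposited log2 scale the means and SDs over cells were as follows. Cd3g was at 3.62 ± 1.19 in DN-like, 2.31 ± 1.04 in DPre-like, 2.97 ± 0.80 in CD4sp-like cells and 3.14 ± 0.84 among CD8sp-like cells. Cd3d was at 3.11 ± 1.27 in DN-like, 2.77 ± 0.91 in DPre-like, 2.90 ± 0.94 in CD4sp-like cells and 3.23 ± 0.68 among CD8sp-like cells. Cd3e was at 2.34 ± 1.02, 2.03 ± 1.04, 2.07 ± 1.01 and 2.47 ± 0.91 in these classes, and Cd247 at 0.71 ± 0.77, 1.27 ± 0.92, 0.90 ± 0.82 and 0.79 ± 0.78. Between any pair of these 4 classes the means of a gene differed by less than the larger SD over cells, except for Cd3g in DN-like against DPre-like cells.

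The share of cells with a step of each gene was then compared across the passage from rearrangement to selection and maturity, with the DPsel-like cells and both SP-like classes pooled as the later cells (618 cells) against the DPre-like cells. The share with Cd247 was 47.2% in the later cells and 62.7% in DPre-like cells, a difference of -15.4 percentage points (Newcombe 95% interval -21.1 to -9.58). The share with Cd3g went the other way, with 94% against 86.2%, a difference of 7.79 points (4.3 to 11.5). Cd3d was detected in 94.5% and 92.2% of cells, a difference of 2.28 points whose interval spans 0 (-0.635 to 5.37). The interval did not span 0 without thinning when only log2 values above 1 counted (3.8 points, 1.39 to 6.48), nor at a clustering resolution of 1 (2.79 points, 0.0105 to 5.81). Cd3e was detected in 79.8% and 79.4% of cells, a difference of 0.332 points (-4.37 to 5.13). Shares near 100% leave little room for a difference, and in steps per 1300 Cd3d was 1.25 times as high in the later cells as in DPre-like cells (1.17 to 1.34), Cd3g 1.39 times (1.29 to 1.51), Cd3e 1.04 times (0.949 to 1.14) and Cd247 0.704 times (0.616 to 0.804).

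From DN-like to DPre-like cells Cd247 was at equal depth the one gene whose interval for the difference in share left out 0, with 41.3% in DN-like and 62.7% in DPre-like cells, a difference of 21.3 points (9.24 to 32.6). The shares of Cd3d differed by 4.22 points (-1.95 to 13.7), those of Cd3e by -3.23 points (-11.1 to 7.4) and those of Cd3g by -5.77 points (-11.2 to 3.04), all with intervals that span 0. Without thinning the Cd3g interval did not span 0, with a difference of -7.19 points (-9.79 to -1.94) for values above 0 and of -10.6 points (-14.8 to -2.92) for log2 values above 1. In steps per 1300, Cd247 was 1.88 times as high in DPre-like as in DN-like cells (1.35 to 2.69), Cd3g 0.482 times (0.425 to 0.548), Cd3d 0.873 times (0.758 to 1.01) and Cd3e 0.837 times (0.704 to 1). The DN-like class had a median of 3551 steps before thinning and the DPre-like class 1999.

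Against all genes, a difference of at least 0.5 between class means on the log2 scale was uncommon. In the later cells against DPre-like cells, 1.33% of 4508 genes were higher by this much and 1.44% lower, among genes above 0 in at least 10% of cells of either class. Cd3g was among the higher genes with a difference of 0.52, a call that ended at a clustering resolution of 1 (0.495), and Cd3d (0.33), Cd3e (0.09) and Cd247 (-0.32) stayed short of the threshold. The Cd247 difference was lower than that of all but 2.6% of the genes. The Cd3d difference was higher than that of 97.5% of the genes and the Cd3e difference higher than that of 86.9%. In DPre-like against DN-like cells, 0.841% of 5944 genes were higher and 2.12% lower by at least 0.5. Cd247 was among the higher genes (0.56) and Cd3g among the lower ones (-1.30), while Cd3d (-0.34) and Cd3e (-0.31) were neither. Still, the Cd3d and Cd3e differences were lower than those of all but 3.9% and 4.6% of the genes. The median difference over all genes was 0.00 in the first comparison and -0.01 in the second.

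Among the DPbla-like clusters the share of cells with Cd247 ran from 30.8% (24.2% to 38%) in the cluster led by Hist1h2ap to 54.8% (42.7% to 66.5%) in that led by Cdc20. Its level was 0.363 and 0.409 steps per 1300 in the DPbla-like clusters led by Hist1h2ap and by Ung, which carry genes of DNA replication, and 0.656 and 0.795 in those led by Ube2c and by Cdc20, which carry genes of mitosis. It was 0.929, 1.06 and 0.826 in the DPre-like clusters, the last being the one with 44.3% of cells above 0 for Mki67, and 0.765 and 0.771 in the DPsel-like clusters, and within each of these classes the intervals of the shares overlapped. It was 0.461 (0.321 to 0.64) in the Tnfrsf9-led cluster, an interval that overlaps those of the CD4sp-like and CD8sp-like cells. The Cd247 levels of 0.363, 0.409 and 0.461 lie inside the APC-like background interval (0.137 to 0.525). In the DPbla-like clusters Cd3g ran from 1.47 to 2.29 steps, in the order replication to mitosis, and Cd3d only from 1.56 to 1.81. The DPre-like cluster led by Tctex1d1 and Chrna9 had more Cd3e (2.02 steps) than the other DPre-like clusters (1.63 and 1.32).

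The detection of several chains in a single cell was most frequent in the DPre-like and DPsel-like classes, though their intervals overlap those of the DN-like and both SP-like classes. All 4 chains had a step in 39.7% of DPre-like cells (35.4% to 44.2%) and 40.4% of DPsel-like cells (35% to 45.9%), against 32% in the DN-like class (21.7% to 43.8%), 28.1% in the CD4sp-like class (21.3% to 35.8%) and 30.5% in the CD8sp-like class (22.8% to 39.2%). ISP-like cells had a share of 8.76% and DPbla-like cells of 17.3%, and it was 0% in the 35 APC-like cells, a count of 0 that allows a share of up to 10% by the exact interval, but 20% in the same cells without thinning. Among cells with exactly 3 of the 4 chains, the chain not seen was Cd247 in 86.8% of 38 DN-like cells, 56% of 225 DPre-like cells and 75.8% of 293 later cells. Without thinning, DN-like cells showed all 4 chains in 60% of cases, ISP-like cells in 76.3%, DPbla-like cells in 83.2% and DPre-like cells in 68.1%. This is another order than at equal depth, and the ISP-like cells had a median depth of 9116 steps, the DN-like ones 3551 and the DPre-like ones 1999.

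**Figure D2:**
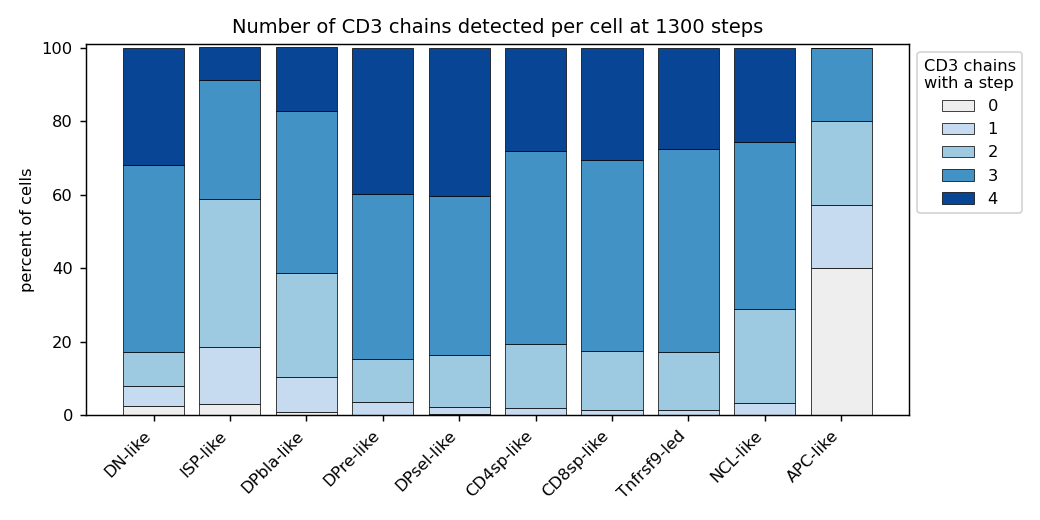
Stacked bars give the percent of cells of each class (y axis) in which 0, 1, 2, 3 or 4 of the CD3 genes had at least 1 step after thinning to 1300 steps. All 4 chains were seen most often in DPre-like (39.7%) and DPsel-like cells (40.4%), and no chain was seen in 40% of APC-like cells.

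The NCL-like cells had 2.52 steps of Cd3d (1.99 to 3.14), 1.48 of Cd3e (1.09 to 1.98), 2.55 of Cd3g (2.02 to 3.18) and 0.419 of Cd247 (0.223 to 0.717). Their Cd3d level was 5.5 times the APC-like level (3.19 to 10.1), that of Cd3e 4 times (2.12 to 8.06) and that of Cd3g 5.25 times (3.08 to 9.45), but Cd247 was not detectable above background in them (1.47 times, 0.595 to 3.74). This class held 31 cells, and whether they include T cells with natural killer genes was not tested.

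The other chains of the receptor and its assembly factors were described from a list of 11 genes. In DPre-like against DN-like cells, Trbc2 (5.47 against 4.14 on the log2 scale) and Trac (1.15 against 0.33), the constant genes of the β and α chains, were the 2 higher genes. The 5 lower genes were Tcrg-C2, Tcrg-C1, Tcrg-C4 and Trdc, constant genes of the γ and δ chains, and Ptcra, the pre-T cell receptor α chain. Tcrg-C2 was at 2.27 in DN-like and 0.02 in DPre-like cells, beside the high Cd3g level of the DN-like class, and the part of γδ lineage cells in that level was not tested. In the later cells against DPre-like cells, of 7 genes that passed the filter Trac was higher (2.24 against 1.15), and Trbc2 (4.54 against 5.47) and Trbc1 (3.00 against 3.80) were lower. The median difference of this list was -0.21 in the first comparison and -0.20 in the second.

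Of 17 ITAM kinases and proximal adaptors, 16 passed the filter in each comparison. None differed by 0.5 between DPre-like and DN-like cells. In the later cells Lck, the kinase that phosphorylates the ITAMs, was lower (2.24 against 2.82), as was Themis (0.54 against 1.18), an adaptor needed in selection, and none was higher. The median difference of these genes was 0.01, close to the 0.00 of all genes. Zap70, the kinase that binds phosphorylated ITAMs, had values of 0.30 and 0.26. Among 5 other ITAM or related adaptors none differed by 0.5 in either comparison, and the largest difference in the later cells was that of Hcst (0.69 against 0.28). Among 14 inhibitors of receptor level or signalling, Sla, the adaptor SLAP that lowers CD3ζ levels in DP cells, was higher in DPre-like than in DN-like cells (0.79 against 0.25) and was at 0.44 in the later cells, an order like that of Cd247. Pag1 was lower in DPre-like than in DN-like cells (0.18 against 0.86), and no inhibitor passed 0.5 in the later cells, where Cd5 came closest (0.62 against 0.19). Among 10 transcription factors known to bind promoters of T cell genes, Tcf7 was higher (2.58 against 1.61) and Runx1 lower (0.21 against 0.79) in DPre-like than in DN-like cells. In the same list Lef1 was higher in the later cells than in DPre-like cells (1.46 against 0.45), and Tcf7 (1.74 against 2.58), Bcl11b (1.47 against 2.11) and Tcf12 (0.40 against 1.00) were lower.

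The genes whose cluster means on the log2 scale were most like those of each CD3 gene were sought among 8206 genes over the 16 clusters, which share a library and differ in depth. For Cd247 these were Trbc2 (Pearson r = 0.891), Stx5a (0.890), Satb1 (0.886), Sept1 (0.878) and Brdt (0.866). For Cd3d they were Crtc3, Mfsd4a, Dgkz, Ralgapb and Ptprcap, with r from 0.840 to 0.852, for Cd3e Fyb, Zfp830, Spata6, Ap3d1 and Fam53a, with r from 0.769 to 0.820, and for Cd3g Cep164, Nvl, Map3k7, Agk and Fyb, with r from 0.773 to 0.827. Among the CD3 genes themselves r was 0.90 between Cd3d and Cd3e, 0.88 between Cd3e and Cd3g and 0.84 between Cd3d and Cd3g, but 0.52, 0.60 and 0.36 between Cd247 and Cd3d, Cd3e and Cd3g. The APC-like cluster, low in all 4 genes, carries part of this. Over the other 15 clusters r was 0.71, 0.66 and 0.59 among the 3 clustered genes and 0.10, 0.22 and -0.21 between them and Cd247. Over these 15 clusters r with the median number of steps was -0.74 for Cd3d, -0.33 for Cd3e, -0.17 for Cd3g and -0.30 for Cd247. Over all 16 clusters that of Cd3d was -0.35.

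In the scATAC-seq table each peak is listed with a width of 4000 bp, but neighbouring peaks shared counts mainly when their centres were close, with 89% of the counts shared under 200 bp and 19.3% from 1400 to 1600 bp. Peaks were therefore placed by their centres. The submitters' processing notes name GRCm38.p5 and hg38 for every sample without saying which table either belongs to. The methods of the study tie the first to the scRNA-seq, and for the scATAC-seq table the build is not given in the sources used here. Of 21938 annotated gene starts of GRCm38, 54.2% had a peak centre within 500 bp, against 9.21% after a shift of 10000 bp. Signal is given as counts per 10000 counts in peaks of the same cells. The sorts had medians of 3377.5 (DN), 3866 (DP), 2571 (CD4) and 3935.5 (CD8) counts per cell and the unsorted cells 5792. The label series differed in depth, and the 31000 series was the shallowest in all 4 sorts, with medians from 1220 to 1332 counts. The start of Cd8a gave a signal of 0.565 in DP and 0.404 in CD8 sorted cells against 0.108 in DN and 0.0358 in CD4 sorted cells, as the labels have it. The start of Il2ra, a DN marker in the RNA, gave 0.144 in DN (16 counts) and 0.0836 in DP sorted cells (4 counts), but 0.179 in CD4 and 0.202 in CD8 sorted cells (10 counts each), so it did not set the DN sort apart. The start of Cd4 gave 12 counts in DP sorted cells but 1 count in CD4 sorted cells, and that of Rag1, a recombinase gene of DN and DP cells, gave 0.384 in CD8 sorted cells and 0 in CD4 sorted cells, against 0.836 in DP sorted cells. The sorts are named by their labels throughout.

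The Cd247 locus had its highest signal in DP sorted cells. Summed over its 94 peaks, the signal was 12.8 per 10000 in DP, 6.89 in DN, 7.45 in CD4 and 9.5 in CD8 sorted cells. By label series it was 13.3, 12.9 and 10.8 in DP sorted cells, and 10.2, 5.41, 6.2, 3.11 and 5.45 in DN sorted cells. It was 8.16 and 4.43 in CD4 sorted and 9.76 and 5.74 in CD8 sorted cells. Every DP series lay above every series of the other sorts. The DN value of 10.2, from the 1000 series, rests on 1 cell with 128 of the counts and was 6.66 without it, which brings the DN signal to 5.79.

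The ratio of DP over DN signal at the Cd247 locus was 1.86, or 2.21 without that cell, and it was 2.08 within the 4000 series and 3.46 within the 31000 series, which both sorts share. Counts of overlapping peaks are not independent, so an interval of 1.55 to 2.22 was set around the ratio of all peaks with the relative width that the counts of 19 peaks that do not overlap allow. Those 19 peaks themselves gave 1.21 for DP over DN (1.01 to 1.45) with the single cell and 1.82 (1.5 to 2.22) without it. SP sorted cells (CD4 and CD8 together) over DP sorted cells gave 0.658 (0.545 to 0.795, set in the same way), with 0.695 within the 4000 series and 0.439 within the 31000 series. These 2 comparisons share the DP sorted cells.

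At the locus of Cd3g, Cd3d and Cd3e the sorts stood closer together. The signal was 6.21 per 10000 in DN, 7.13 in DP, 5.73 in CD4 and 7.12 in CD8 sorted cells. By label series it was 7.27, 7, 7.4, 2.16 and 4.29 in DN sorted cells and 8.53, 6.98 and 4.09 in DP sorted cells. It was 6 and 4.62 in CD4 sorted and 7.53 and 0.956 in CD8 sorted cells, and the last rests on 3 counts. The series of all sorts overlapped, and in every sort the 31000 series was the lowest. The ratio was 1.15 for DP over DN (0.936 to 1.41) and 0.895 for SP over DP (0.73 to 1.1), and both intervals, set as above, include 1. Within the 4000 series the ratios were 0.943 and 0.971. Within the shallow 31000 series, which the sorts also share, they were 1.89 (0.948 to 3.85) and 0.925 (0.552 to 1.6). Some other settings left out 1, with intervals that count overlapping peaks as independent and so are too narrow. For DP over DN these were peaks that hold a start (1.29, 1.08 to 1.54), cells thinned to 1000 counts (1.59, 1.14 to 2.23) and the data without the 1000 series of DN sorted cells (1.24, 1.08 to 1.44), the 2000 (1.19, 1.03 to 1.36) or 4000 series of DN (1.21, 1.05 to 1.38) or the 31000 series of DP sorted cells (1.21, 1.06 to 1.39). For SP over DP they were peaks that hold a start (0.8, 0.669 to 0.958) and the data without the 4000 series of CD8 (0.769, 0.658 to 0.897) or the 31000 series of DP sorted cells (0.849, 0.742 to 0.974).

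In single peaks a difference of 1.5-fold was common. For DP over DN, 25.6% of 20464 peaks with at least 20 counts in both sorts together were higher by this much and 23.5% lower, and for SP over DP 27.2% of 20143 peaks were higher and 22.6% lower. At the Cd247 locus 21 of 94 peaks passed this filter for DP over DN, of which 15 were higher (71.4%) and 2 lower, with a median ratio of 2 against 1.04 over all peaks. For SP over DP 25 passed, of which 3 were higher and 11 lower (44%), with a median ratio of 0.681 against 1.02. At the other locus 16 of 57 peaks passed for DP over DN, with 6 higher (37.5%) and 0 lower, and 15 for SP over DP, with 4 higher and 3 lower. Neighbouring peaks share counts, so these are not independent counts of peaks.

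**Figure D3:**
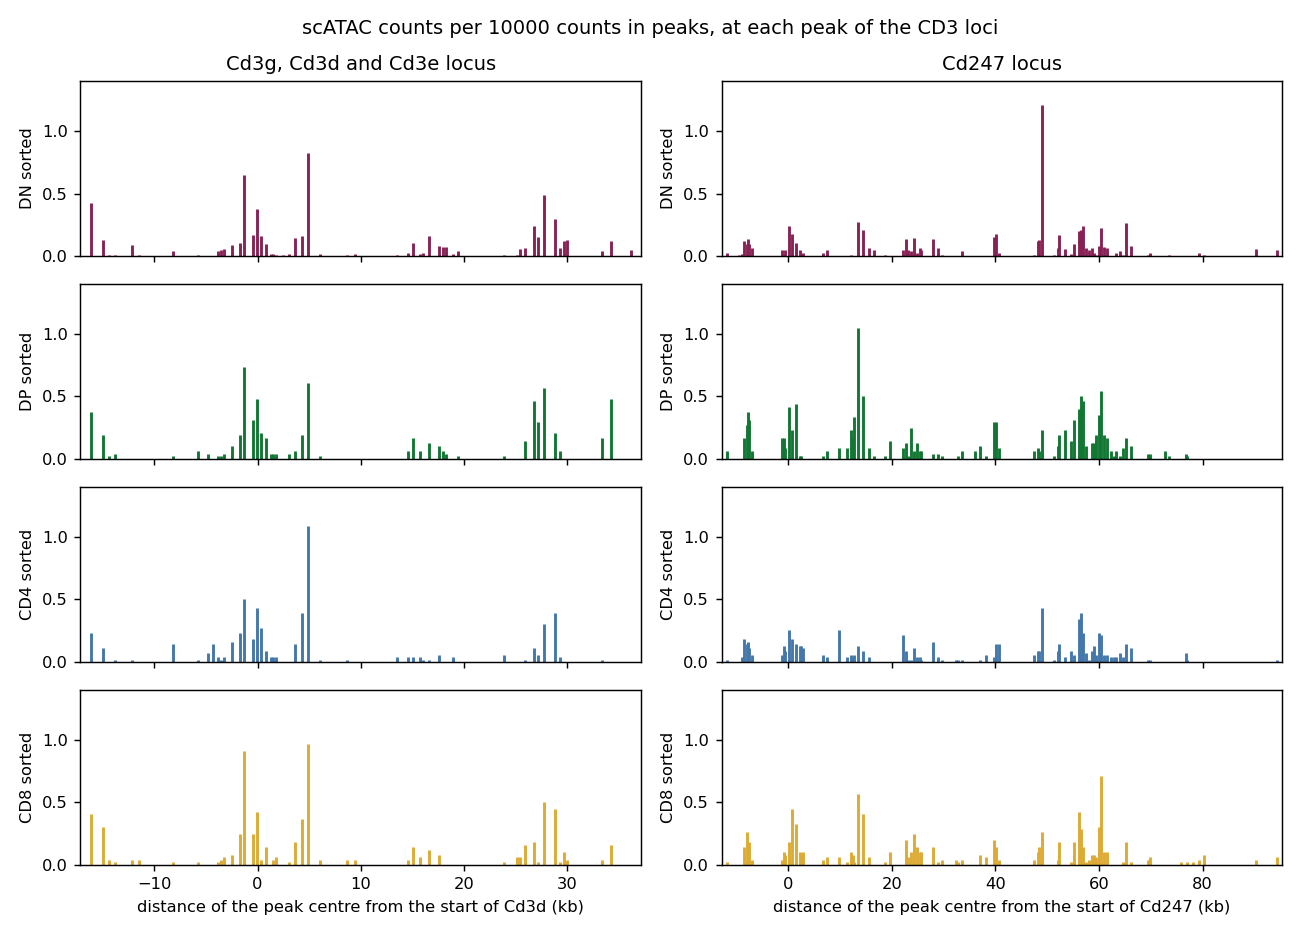
Signal of each peak (y axis, counts per 10000 counts in peaks) against the distance of its centre from the start of Cd3d or Cd247 (x axis, kb along the chromosome), 1 row for each sort. The bar in DP sorted cells 13.5 kb after the Cd247 start stands at 1.05, against 0.271 in DN sorted cells, and the tall DN bar at 48.9 kb (1.21) comes mostly from 1 cell.

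The peak whose sequence is shown above, in the Cd247 intron 13.5 kb after the start, had the highest DP sorted signal of the locus. It had 50 counts in 37 DP sorted cells, a signal of 1.05 (0.776 to 1.38), and 30 counts in DN sorted cells, a signal of 0.271 (0.183 to 0.386). By label series the signal was 1.02, 1.12 and 0.744 in DP and 0.324, 0.227, 0.277, 0.271 and 0.232 in DN sorted cells, so the series of the 2 sorts did not overlap. The ratio was 3.86 (2.41 to 6.29). The peak also stood out by its DP over DN and SP over DP ratios and was picked from these counts, so the interval and the series are no support for the difference. CD4 sorted cells had 7 counts (0.125, 0.0504 to 0.258) and CD8 sorted cells 28 (0.566, 0.376 to 0.818), beside the start of Rag1, which was also open in CD8 and not in CD4 sorted cells. CD4 over CD8 was 0.222 (0.0817 to 0.519). The neighbouring peak at 12.7 kb had 16 counts in DP, 0 in DN, 3 in CD4 and 1 in CD8 sorted cells.

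Farther into Cd247, the peak at 60.1 kb had a signal of 0.355 in DP (17 counts), 0.0812 in DN, 0.233 in CD4 and 0.303 in CD8 sorted cells, a DP over DN ratio of 4.38 (1.85 to 11.1). Its DP series, at 0.271, 0.434 and 0.186, overlapped the DN series, which ran from 0 to 0.231. The intron peak at 48.9 kb had 134 counts in DN sorted cells, 119 of them in 1 cell of the 1000 series. Without that cell its DN signal was 0.137, under the 0.23 of DP sorted cells. The peak at 65.2 kb was at 0.262 in DN and 0.167 in DP sorted cells, a ratio of 0.64 with an interval that includes 1 (0.253 to 1.43). Among peaks with at least 20 counts in the sorts compared, those with the highest SP over DP ratios, at 9.8 and 24.3 kb, had intervals of 0.63 to 7.89 and 0.796 to 14.4, and 1 cell held 7 of the 14 CD4 counts of the first.

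In the single peaks centred closest to the 4 starts, the interval of DP over DN included 1. The peak centred on the Cd3g start had a signal of 0.649 in DN, 0.732 in DP, 0.502 in CD4 and 0.91 in CD8 sorted cells, and that on the Cd3d start 0.379, 0.481, 0.43 and 0.425. The peak at the Cd3e start had 0.487, 0.565, 0.305 and 0.505, and that at the Cd247 start 0.244, 0.418, 0.251 and 0.182. The DP over DN ratios were 1.13 (0.73 to 1.71), 1.27 (0.729 to 2.16), 1.16 (0.702 to 1.87) and 1.72 (0.913 to 3.18), in this order of genes. CD4 over CD8 at the Cd3g start was 0.551 (0.331 to 0.903), from 28 and 45 counts, and 1.01 (0.54 to 1.91) at the neighbouring Cd3d start. The shallow 31000 series did not share the order at the Cd3g start, with 0.471 in CD4 and 0.319 in CD8 sorted cells (5 counts and 1 count). The peak 0.3 kb into Cd3d went the other way, with 15 counts in CD4 and 2 in CD8 sorted cells, a ratio of 6.65 (1.55 to 59.9). Because of their listed width 24 peaks cover a start of these genes, and the other 20 are centred 0.3 to 2 kb from one.

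Of the 6 peaks that cover the Cd247 start, 3 had a DP over DN interval above 1. The peak centred 1.5 kb into the first intron had 21 counts in DP sorted cells, of which 1 cell held 6, a signal of 0.439, and 12 counts in DN sorted cells, a signal of 0.108. Its ratio was 4.06 (1.91 to 9.05), and the DP series at 0.338, 0.253 and 1.67 lay above the DN series, which ran from 0.0386 to 0.147. SP over DP at this peak was 0.519 (0.277 to 0.981). The others, 1.2 and 0.9 kb before the start, rest on 8 DP counts each, with ratios of 3.71 (1.07 to 14.4) and 9.27 (1.85 to 89.6). In the first all 8 DP counts were in the 4000 series, from 3 cells, so the other DP series were at 0, under the 0.271 of the 31000 series of DN sorted cells. The second held 6 of its DP counts in the 4000 series, and its DP series (0.0677, 0.217 and 0.186) also lay under that DN value. The peak 0.7 kb after the start had its highest signal in CD8 sorted cells (0.445, against 0.179 to 0.23 in the other sorts), but the 31000 series of DP sorted cells, at 0.558, lay between both CD8 series. Summed over these 6 peaks, DP over DN was 2.35 (1.67 to 3.31), an interval that is too narrow because the peaks share counts.

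Of the 18 peaks that cover a start of Cd3g, Cd3d or Cd3e, 1 had a DP over DN interval above 1 and 1 below 1, both at Cd3e. The first, 1.1 kb into the gene, was at 0.244 in DN, 0.46 in DP, 0.108 in CD4 and 0.182 in CD8 sorted cells, with ratios of 1.89 for DP over DN (1.03 to 3.44) and 0.31 for SP over DP (0.149 to 0.625). The series of both sorts overlapped there, from 0.186 to 0.541 in DP and from 0 to 0.416 in DN sorted cells. Its neighbour at 0.7 kb had an SP over DP ratio of 0.13 (0.0311 to 0.413), but 13 of its 14 DP counts were in the 3000 series (0.88) and 6 of them in 1 cell. The other DP series stood at 0.0361 and 0 there, level with the CD4 and CD8 series (0 to 0.0664). The other, 1.9 kb before the start, had 13 counts in DN sorted cells, 9 of them in the 1000 series, and 0 in DP sorted cells, where the exact interval of the ratio reaches 0.761. Intervals of single peaks are not adjusted for the number of peaks read. For a peak picked by its ratio, the interval is no support for that ratio.

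**Figure D4:**
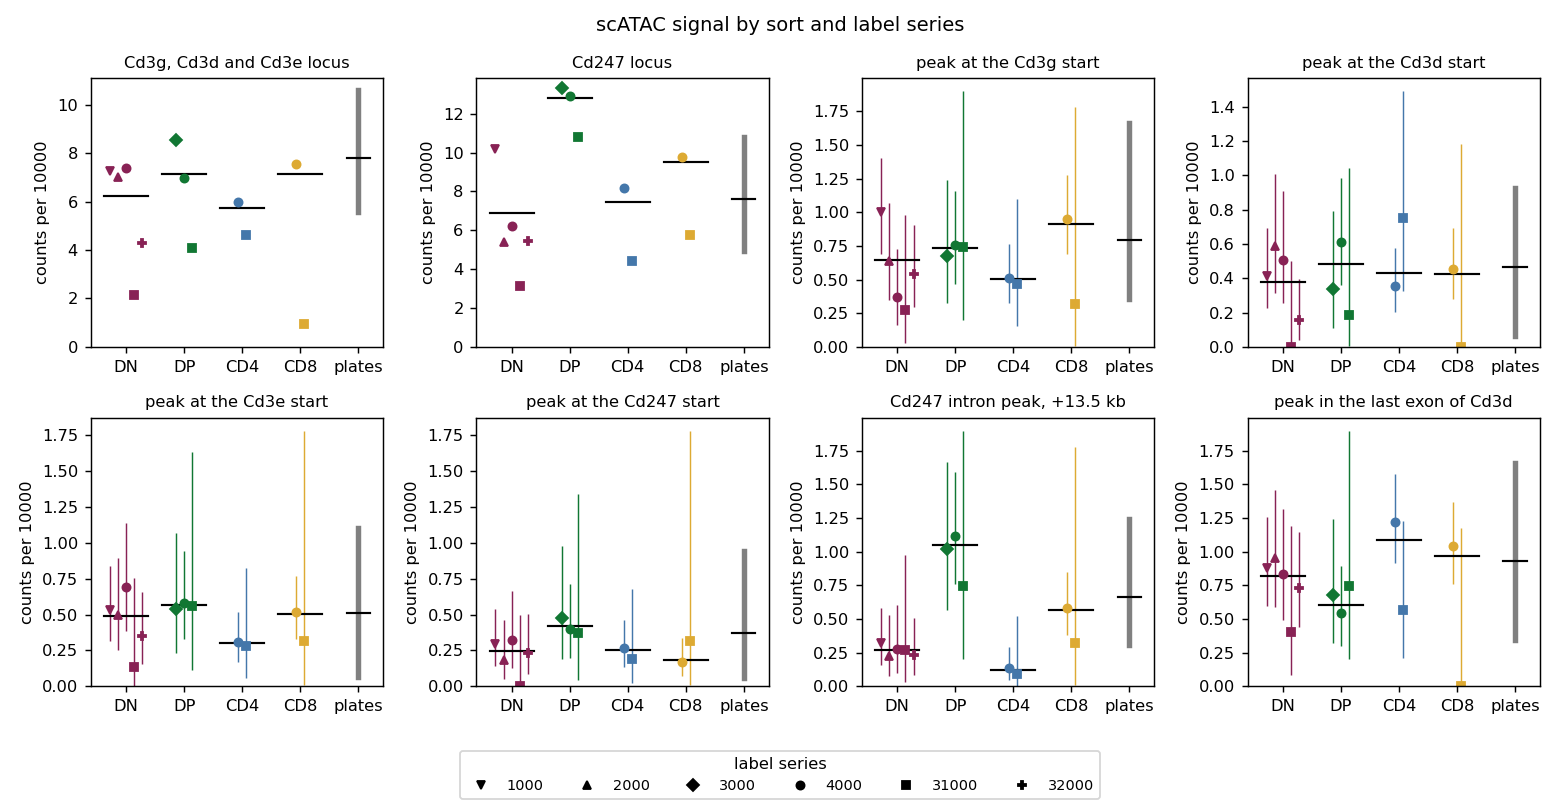
Signal per 10000 counts in peaks (y axis, from 0) by sort (x axis) for both loci, the peaks at the 4 starts and 2 further peaks. Symbols are label series with exact Poisson 95% intervals (not drawn for loci, whose peaks overlap), black lines the whole sort, and the grey bar and its line the range and median over 36 plates of unsorted cells. At the Cd247 locus every DP series (10.8 to 13.3) lies above every other series (up to 10.2).

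The strongest peak of the Cd3 locus in DN, CD4 and CD8 sorted cells was not at a start but in the last exon of Cd3d, 4.9 kb after its start. Its signal was 0.821 in DN (91 counts), 0.606 in DP (29 counts), 1.09 in CD4 (61 counts) and 0.97 in CD8 sorted cells (48 counts). The ratio was 0.739 for DP over DN (0.469 to 1.13) and 1.71 for SP over DP (1.13 to 2.67). By label series the DP values of 0.677, 0.542 and 0.744 lay under the 4000 series of CD4 (1.22) and CD8 (1.04) sorted cells, while the shallow 31000 series gave 0.566 and 0. The peaks beside it, at 4.3 and 3.7 kb, had the highest SP over DP ratios of the locus among peaks with at least 20 counts, 2.02 (0.964 to 4.73) and 2.57 (0.745 to 13.7), with intervals that include 1.

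The peak 6.4 kb before the Cd3e start, outside any gene, had the largest DP over DN ratio of this locus among peaks with at least 20 counts in both sorts together. It had 23 counts in 18 DP sorted cells, a signal of 0.481 (0.305 to 0.722), 13 counts in DN (0.117), 8 in CD8 (0.162) and 0 in CD4 sorted cells, where the exact interval reaches 0.0661. The ratio was 4.1 (1.99 to 8.82) for DP over DN and 0.158 (0.0611 to 0.366) for SP over DP. The peak was picked by these ratios, which share the DP sorted cells, so their intervals and the series are no support for them. The DP series were at 0.541, 0.398 and 0.744 and the DN series at 0.118, 0.136, 0.0462, 0 and 0.193, without overlap. The remaining peaks singled out at this locus, at 12.8 and 11.2 kb into the minus strand from the Cd3e start and at 14.8 kb from the Cd3g start, had DP over DN ratios of 1.55, 0.773 and 0.888 with intervals that include 1. The last lies 32 bp from the start of the neighbouring gene Ube4a.

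Over the 36 plates of unsorted cells the Cd3 locus had a signal from 5.56 to 10.6 with a median of 7.78, and the Cd247 locus from 4.95 to 10.8 with a median of 7.59. At the Cd247 locus the highest plate was thus level with the lowest DP series. The unsorted cells together stood at 7.49 there, near the DN (6.89) and CD4 (7.45) sorted values and under the 12.8 of DP sorted cells. The study counts most thymocytes as DP cells, yet the unsorted cells did not show the DP level. Why was not tested. The unsorted cells had 52.9% of their counts in peaks that hold a gene start, against 41.1% to 43.4% in the sorts. Their median was 5792 counts per cell, against 2571 to 3935.5 in the sorts. Why the plates and the sorted cells differ in these was not tested. The Cd247 intron peak at 13.5 kb had a median of 0.665 over the plates (0.31 to 1.24), between the DN and the DP sorted value, and the last-exon peak of Cd3d a median of 0.932 (0.342 to 1.66).

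Side by side, Cd247 had its highest RNA level in DPre-like cells (0.954 steps per 1300, against 0.507 in DN-like and 0.672 in the later cells). Its locus had the highest signal in DP sorted cells (12.8, against 6.89 in DN, or 5.79 without 1 cell, and 8.42 in SP sorted cells). The peak at its start stood at 0.418 in DP and 0.244 in DN sorted cells, a ratio whose interval includes 1 (0.913 to 3.18). Cd3g had its highest RNA level in DN-like cells (4.28 steps). The peak at the Cd3g start stood at 0.649 in DN and 0.732 in DP sorted cells, and the locus it shares with Cd3d and Cd3e at 6.21 and 7.13. The RNA classes and the sorts are different cells and divide the thymocytes in different ways, and no correlation between the 2 tables was computed.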

How the data were processed

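The members and gene lists were chosen with earlier results of these data known. For the scRNA-seq table the authors mapped reads with Cell Ranger 1.3.1 to GRCm38.p5 (the study's methods and the submitters' processing notes), filtered cells and genes, and deposited log2 values after quantile normalization. For the scATAC-seq table the authors deposited counts of fragments per peak and cell, with peaks called on merged cells. Of its 1988 cell columns 362 were not used here, since their labels give no sort or could not be matched by a shared start.

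Clusters came from Seurat 5.3.0 run under R 4.3.3 (20 principal components, 30 neighbors, resolution 2) and named by 61 of 66 markers found in the table. ISP and DPbla could name only clusters where 50% or more of the cells were above 0 for Mki67, and such clusters took no other name. No doublet caller was run. Steps were thinned to 1300 per cell. Exact binomial, exact Poisson, Newcombe and exact conditional 95% intervals were computed with scipy and cover counting error only. Called genes differed by at least 0.5 (log2) and called peaks by at least 1.5-fold. No test was run, since each group is 1 sample.

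Named were the 4 genes, the peaks that hold their starts, the 2 highest and 2 lowest other peaks of each locus by ratio among those with at least 20 counts, the 5 most alike genes of each member and up to 4 genes of each list. Alternatives were other clusterings, no thinning, cells left out, other peak sets, other scaling and single label series. The functions were tested on simulated data.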

Additional observations from a re-analysis of the deposited data

Results flagged for a closer look

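In the DN sorted cells, 1 of the 5 label series stood far from the others in 5 of 40 items checked (both loci and 38 peaks). Chance gives about 1 in 20 for continuous values, but not for sparse counts or for peaks that share counts, where a few counts against zeros are enough, so nothing is read from the number 5. At the Cd247 intron peak 48.9 kb after the start the 1000 series had a signal of 3.71 per 10000, against at most 0.185 in the other series, and 119 of its counts came from 1 cell. The other 4 rest on few counts. They were 0.271 in the 31000 series at each of the peaks centred 1.2 and 0.9 kb before the Cd247 start, 0.0589 in the 1000 series at a peak 1.3 kb into Cd3d and 0.0462 in the 4000 series at a peak 1.8 kb into Cd3d.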

How the results depend on the processing

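All 8 differences in share of cells stayed inside their 95% intervals under the 9 alternatives run for each, including the Tnfrsf9-led cluster counted as CD4sp-like, chosen after seeing the data. Intervals that spanned 0 no longer did so for Cd3g in DPre-like minus DN-like cells without thinning (-7.19 and -10.6 points) and for Cd3d in the later cells minus DPre-like cells (3.8 points without thinning and above a log2 value of 1, 2.79 at a resolution of 1). Cd247 ran from -17.1 to -12.3 points for the later cells minus DPre-like cells and from 15.8 to 23.4 for DPre-like minus DN-like cells. The Cd3d difference for DPre-like minus DN-like cells ran from -1.05 to 5.13.

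The calls of CD3 genes over the 2 comparisons numbered 3 (Cd3g in both and Cd247 in 1), and 2 to 3 under 5 alternatives, where the call of Cd3g in the later cells ended at a resolution of 1. Of 66 alternatives for loci and peaks, 59 stayed inside the 95% interval or, for the 44 peak calls, within 1.5 times. For DP over DN at the Cd3g, Cd3d and Cd3e locus the ratio was 1.89 within the 31000 label series and 1.59 with each cell thinned to 1000 counts. At the Cd247 locus it was 2.35 in peaks that hold a start, 1.21 in peaks that do not overlap one another and 3.46 within the 31000 series, and SP over DP was 0.439 within the 31000 series. Leaving out each label series in turn gave 1.05 to 1.24 and 0.769 to 0.981 at the Cd3 locus and 1.75 to 2.36 and 0.575 to 0.693 at the Cd247 locus, for DP over DN and SP over DP. Leaving out the 1 DN sorted cell, chosen after seeing the data, gave 2.21 for DP over DN at the Cd247 locus and 1.82 in peaks that do not overlap. The cause of the other shifts was not tested. No paired analysis was possible because the labels give neither an animal nor a replicate that the sorts share; ratios within the shared label series, which are not replicates, stand in for it. Shallow label series, with as few as 3 counts at a locus, limit what the sorts can show.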
